A study of Mus musculus with 22 samples.

Results

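Glycolysis and hypoxia response genes were followed as a set of 40 genes, chosen by name for what they are known to do, among the 46882 genes of a table of normalized counts in 16 libraries. All 40 had a row in the table. The set holds 3 carriers of glucose and lactate, 11 genes of upper glycolysis and 8 of lower glycolysis and its exits, 5 genes of oxygen sensing, 3 genes for secreted or surface products, 7 for mitochondria and stress, and 3 for protein folding and collagen hydroxylation. The study asked how the immune system shapes tumors of MC38, a colon adenocarcinoma line induced with a chemical in a female C57BL/6 mouse, and grew these cells under the skin of female hosts with and without lymphocytes. The 2 MC38 libraries were labelled C57BL/6N and day 0 and had no host. The 2 skin libraries were labelled wild-type C57BL/6N, day 23. Tumors came from wild-type C57BL/6N mice at day 23 and at day 46, and from RAG1-/- mice of strain B6.129S7-Rag1tm1Mom/J at day 13 and at day 23, with 3 libraries in each of these 4 groups. Skin donors and hosts were 8 to 12 weeks old. RAG1-/- mice form no mature T or B cells and keep macrophages and natural killer cells. Day 23 was the only day sampled in both hosts. Each tumor was cut into pieces for RNA, DNA and flow cytometry, so a library is 1 piece of mixed tissue. The labels number the replicates without saying whether the MC38 samples were separate cultures or the skin samples separate mice, so the spread between these samples may be technical. P-values of comparisons with MC38 and skin rest on a spread within groups pooled over all 16 libraries. Most of that spread comes from the tumors.

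Glycolysis splits glucose into pyruvate and yields ATP without oxygen, and lactate dehydrogenase and a monocarboxylate carrier then turn pyruvate into lactate and move it out of the cell. When oxygen is low, the prolyl hydroxylases EGLN1 and EGLN3 stop marking the transcription factor subunit HIF1A for destruction, and HIF1A with its partner ARNT binds short motifs near its target genes. The targets include most glycolytic enzymes, the glucose carrier GLUT1, the angiogenic factor VEGFA, the surface carbonic anhydrase CAR9 and the mitophagy receptor BNIP3. EGLN3 and ANKRD37 are themselves targets. HIF1A is regulated mainly as a protein, so its mRNA is not a readout of its activity. Solid tumors outgrow their vessels, and this program is often high in them.

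Libraries held 5589151 to 26134241 reads on genes, and 3 reads corresponded to 1.33 to 6.38 normalized counts, taken as the lowest level a library could show. This floor covers counting error only. The libraries were 3′ reads, so Rag1 reads outside the deleted stretch would not test the label, and 1 to 12 reads of Rag1 were seen in each library labelled RAG1-/- and 0 or 1 in the others. Summed T cell markers stood at 2.22 to 19.1 normalized counts in tumors labelled RAG1-/- and at 58.8 to 209 in wild-type tumors. Both skin libraries held reads of the Y-linked gene Ddx3y (1346 and 1505), which had 0 or 1 read in every other library, so the skin held male cells. MC38 cells lacked the colon epithelial markers Krt18, Cdx2 and Cldn7, all listed at 0. No 2 replicates were copies of one library, as their reads differed by far more than sampling noise.

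The members took 0.631% and 0.668% of the reads in MC38 cells, 0.544% and 0.566% in skin and 0.826% to 1.28% in tumors. The lowest tumor thus lay above every library of skin and of MC38 cells. The map of all members shows a difference of many genes between tumors and MC38 cells, largest on the log2 scale for Car9, Ankrd37, Aldoc and Bnip3. Against skin the members went both ways, and Aldoc was lower in tumors.

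**Figure D1:**
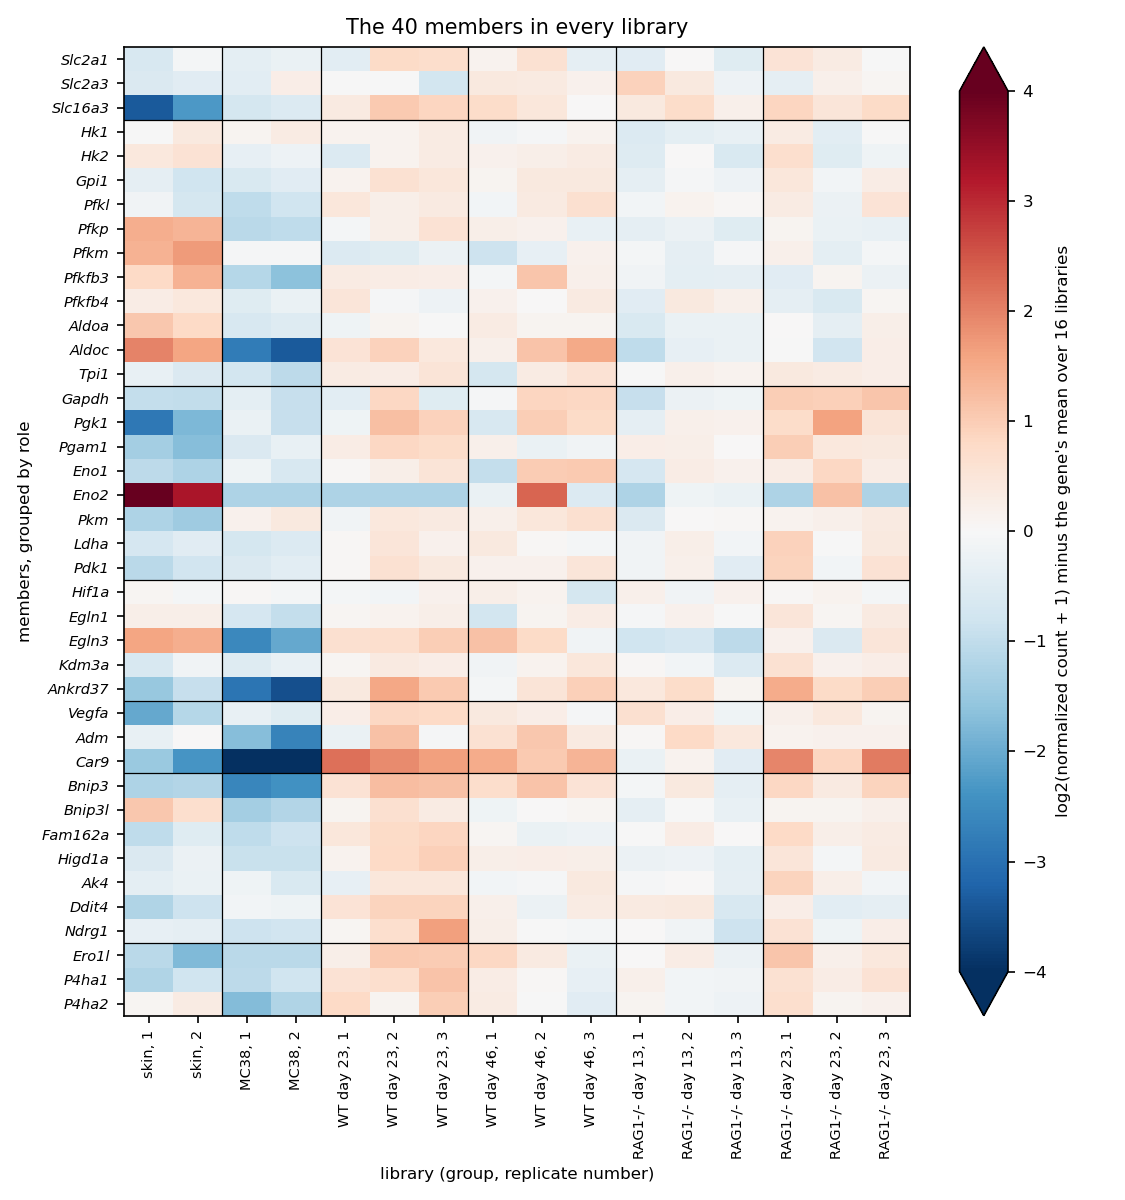
Each row is 1 of the 40 members and each column 1 of the 16 libraries, and color gives log2(normalized count + 1) minus the mean of that gene over the 16 libraries, from -4 (blue) to 4 (red), with stronger values drawn at the end colors. Lines separate the roles and the groups. The 2 MC38 columns are mostly blue next to the 12 tumor columns, and Aldoc, Egln3, Pfkp, Pfkm and Eno2 are reddest in skin.

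Where tumors differed from MC38 cells in these genes, they were higher. Of the 40 members, 27 were higher in the 12 tumors than in MC38 cells and 0 were lower (limma on log2(normalized count + 1), mean of the 4 tumor groups minus MC38, Benjamini-Hochberg adjusted p under 0.05), where 16.5% of the 16158 genes tested were higher and 8.01% lower. edgeR called 26 higher and 0 lower and DESeq2 28 and 0. At an unadjusted limma p under 0.05 there were 29 higher and 0 lower, where 5692 of the 16158 genes passed in either direction. The median difference was 0.92 over the members and 0.07 over all genes tested. In 21 members the lowest tumor lay above the highest MC38 library, and in 0 members did the highest tumor lie below both MC38 libraries, against 14.7% and 9.34% of all genes. The set of tumors and the 2 MC38 libraries also differed in their cells. Summed macrophage markers were at 163 and 181 normalized counts in MC38 cells and at 9826 to 21634 in tumors, with Adgre1 and Mrc1 at 0 in MC38. Fibroblast markers were at 5159 to 5803 and at 13642 to 48893, and endothelial markers at 9.41 to 13.7 and at 477 to 1300. The part of these cells in the differences below was not tested, and in such bulk samples more cells that express a gene and more RNA per cell cannot be told apart. Culture and tumor also cannot be told apart from day 0 and the later days.

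The secreted and surface products were all 3 higher in tumors. Car9, which encodes carbonic anhydrase 9, an enzyme on the cell surface that makes protons and bicarbonate from carbon dioxide, had 6.84 and 2.93 normalized counts in MC38 cells, from 8 and 3 reads. Its 12 tumors ran from 136 through a median of 498 to 864. Every tumor was thus above both MC38 libraries. The difference was 6.23 on the log2 scale (SE 0.32, limma adjusted p = 2.57e-10), the largest of any member, and the ratio of the mean tumor to the pooled MC38 level was 97.3, with a 95% interval of 54.4 to 195 from the exact Poisson limits of the 11 MC38 reads, which covers counting error only. Adm, the gene of the vasodilator peptide adrenomedullin, had 18 and 8.8 normalized counts in MC38, from 21 and 9 reads, and 50.9 to 140 in tumors, with a median of 73.3. These groups did not overlap, and Adm was higher by 2.57 (SE 0.37, limma adjusted p = 5.7e-05). Vegfa, the main angiogenic growth factor, was already at 994 and 874 in MC38 cells and at 1065 to 2167 in tumors. The gap between the highest MC38 library and the lowest tumor was small, and Vegfa was higher by 0.71 (SE 0.22, limma adjusted p = 0.0294).

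**Figure D2:**
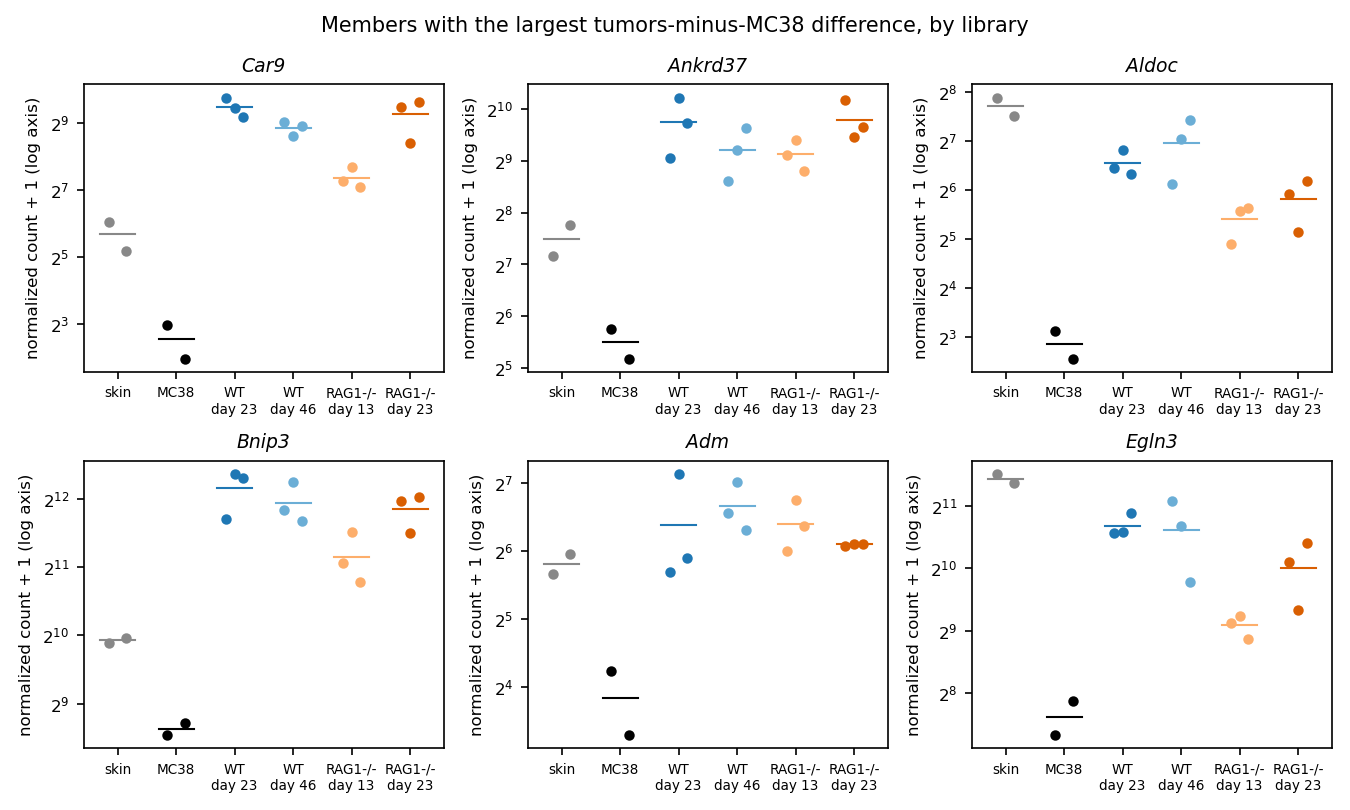
Normalized count + 1 on a log axis in each library (points) and the group mean (line) for the 6 members with the largest tumors-minus-MC38 difference. In all 6 panels each of the 12 tumors lies above both MC38 libraries, and in Aldoc and Egln3 both skin libraries lie above every tumor.

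The promoters of the 4 members with the largest difference are shown because members that rose together may be read beside the core motif that HIF1A and ARNT bind, ACGTG or GCGTG. Each runs from 250 bases before to 50 after a RefSeq transcript start in GRCm38.p6, 5′ to 3′ on the strand of the gene, with every ACGTG or GCGTG on either strand in capitals.
Car9, chr4:43506776-43507075, plus strand: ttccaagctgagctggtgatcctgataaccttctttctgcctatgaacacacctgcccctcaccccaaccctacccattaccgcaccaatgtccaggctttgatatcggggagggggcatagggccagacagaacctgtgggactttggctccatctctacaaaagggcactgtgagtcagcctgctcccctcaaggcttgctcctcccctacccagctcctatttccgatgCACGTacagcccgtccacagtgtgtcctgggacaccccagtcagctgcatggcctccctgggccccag
Ankrd37, chr8:45999801-46000100, minus strand: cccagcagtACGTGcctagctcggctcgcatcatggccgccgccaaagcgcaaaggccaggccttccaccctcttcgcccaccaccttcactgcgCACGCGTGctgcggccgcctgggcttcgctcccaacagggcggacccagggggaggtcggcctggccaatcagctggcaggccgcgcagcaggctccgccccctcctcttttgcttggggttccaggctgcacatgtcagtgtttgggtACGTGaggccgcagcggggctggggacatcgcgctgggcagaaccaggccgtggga
Aldoc, chr11:78322823-78323122, plus strand: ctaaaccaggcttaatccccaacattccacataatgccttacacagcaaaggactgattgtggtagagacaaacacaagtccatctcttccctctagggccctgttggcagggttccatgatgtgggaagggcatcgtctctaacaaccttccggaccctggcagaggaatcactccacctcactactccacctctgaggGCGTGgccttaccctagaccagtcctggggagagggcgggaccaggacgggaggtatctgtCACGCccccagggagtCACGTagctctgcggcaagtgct
Bnip3, chr7:138909457-138909756, minus strand: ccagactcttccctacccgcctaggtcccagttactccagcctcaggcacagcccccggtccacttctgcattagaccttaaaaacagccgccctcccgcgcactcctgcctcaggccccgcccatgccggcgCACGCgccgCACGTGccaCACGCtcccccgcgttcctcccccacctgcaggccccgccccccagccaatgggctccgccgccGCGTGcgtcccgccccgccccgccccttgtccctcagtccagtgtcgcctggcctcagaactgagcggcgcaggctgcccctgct
The Car9 window held 1 motif, the Ankrd37 window 4, the Aldoc window 3 and the Bnip3 window 5, counting both strands. The motif of Car9 began 18 bases before the start. In Bnip3 a pair of motifs overlapped on opposite strands within CACGTG, which other factors also bind. RefSeq promoters were matched to 36 members, all but Slc2a3, Bnip3l, Ndrg1 and Ero1l, and where a gene had several the one nearest the annotated gene start on the same strand was used. The RefSeq start used for Ankrd37 lay 5857 bases from its annotated gene start, and the largest such distance was 6492, for Hif1a. At least 1 motif stood in 29 of the 36 windows, or 80.6%, and in 43.8% of all 32851 promoters of the same length in the table. Each member gave 1 window, while all listed promoters of every gene entered the second share. The members were also chosen by name, so these sets are not alike. Of the 24 matched members that were higher in tumors 20 held it, and of the 12 matched members that were not called 9 did. The motif was thus present in most windows of both kinds, and a match is a run of letters and not a site shown to be bound.

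Oxygen sensing genes were higher in 4 of 5 cases, and the exception was Hif1a itself. Hif1a, the oxygen-regulated subunit, was at 1917 and 1791 normalized counts in MC38, at 1141 to 2206 in tumors and at 1995 and 1785 in skin. The 3 ranges overlapped. Ankrd37, a small ankyrin-repeat protein gene, was at 53 and 35.2 in MC38 and at 390 to 1198 in tumors, with a median of 691. No tumor came down to the MC38 level, and the difference was 3.96 (SE 0.29, limma adjusted p = 2.81e-08). Egln3, the prolyl hydroxylase that is itself induced by low oxygen, was at 159 and 233 in MC38 and at 464 to 2161 in tumors, higher by 2.45 (SE 0.28, limma adjusted p = 4.14e-06). Egln1, the prolyl hydroxylase that sets HIF1A levels in normal oxygen, was higher by 0.91 (SE 0.19, limma adjusted p = 0.00175). Its tumor range of 1286 to 2963 reached into that of MC38, where it was at 1327 and 1093. Kdm3a, a histone demethylase, was higher by 0.55 with the weakest call of the set (SE 0.18, limma adjusted p = 0.0385). It passed in 13 of 26 alternatives, and its adjusted p rose to 0.323 without MC38 replicate 1 and 0.128 without MC38 replicate 2.

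Mitochondrial and stress genes were higher in 5 of 7 cases. Bnip3, which marks mitochondria for removal, was at 370 and 418 normalized counts in MC38 and at 1765 to 5287 in tumors, with a median of 3506. The groups were far from overlapping, and the difference was 3.13 (SE 0.20, limma adjusted p = 4.88e-09). Its relative Bnip3l was at 380 and 433 in MC38 and at 757 to 1539 in tumors, higher by 1.34 (SE 0.15, limma adjusted p = 2.95e-06). Fam162a and Higd1a, which encode small mitochondrial proteins, were higher by 1.19 (SE 0.17) and 1.11 (SE 0.17), and neither gene's groups overlapped. Ndrg1, a stress-induced growth regulator, was higher by 0.98 (SE 0.28, limma adjusted p = 0.0183), with 1 tumor, wild-type day 23 replicate 3, at 5365 and the other 11 at or below 2737. Ak4, a mitochondrial adenylate kinase, and Ddit4, an inhibitor of mTORC1, did not pass, with differences of 0.52 (SE 0.24) and 0.32 (SE 0.24).

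Genes for protein folding and collagen hydroxylation were higher in 3 of 3 cases, each without overlap. Ero1l, the oxidase that renews disulfide bond formation in the endoplasmic reticulum, was at 1250 and 1237 in MC38 and at 2174 to 5675 in tumors, higher by 1.50 (SE 0.28, limma adjusted p = 0.000781). P4ha1 and P4ha2 encode the catalytic subunits of collagen prolyl 4-hydroxylase, which fibroblasts use when they make collagen. P4ha1 was at 900 and 1074 in MC38 and at 1485 to 4086 in tumors, higher by 1.24 (SE 0.18, limma adjusted p = 5.63e-05). P4ha2 was at 146 and 212 in MC38 and at 355 to 978 in tumors, higher by 1.68 (SE 0.23, limma adjusted p = 4.45e-05).

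Upper glycolysis was higher in 7 of 11 genes, and isoforms of the same step stood on both sides of the threshold. Aldoc, the aldolase of brain and other tissues, was at 7.7 and 4.89 normalized counts in MC38, from 9 and 5 reads, and at 28.9 to 170 in tumors, with a median of 70. It was higher by 3.28 (SE 0.36, limma adjusted p = 3.57e-06), and Aldoa, the muscle and general aldolase, by 0.51 (SE 0.15, limma adjusted p = 0.0243). The difference between these isoforms was not itself tested. Phosphofructokinase is the committed step of the pathway. Its liver form Pfkl was higher by 1.13 (SE 0.20, limma adjusted p = 0.000547) and its platelet form Pfkp by 0.99 (SE 0.17, limma adjusted p = 0.000334), while the muscle form Pfkm was at 469 and 461 in MC38 and at 269 to 551 in tumors, a difference of -0.21 (SE 0.20) that did not pass. Pfkfb3, which makes the activator of phosphofructokinase, was at 89.8 and 63.5 in MC38 and at 145 to 435 in tumors, higher by 1.44 (SE 0.26, limma adjusted p = 0.000553), and its relative Pfkfb4 did not pass (0.39, SE 0.26). Gpi1 and Tpi1, the isomerases of the pathway, were higher by 0.71 (SE 0.16) and 1.12 (SE 0.22). Neither hexokinase, the enzyme that traps glucose in the cell, passed. Hk1 was at 655 and 758 in MC38 and at 420 to 763 in tumors, a difference of -0.27 (SE 0.16), and Hk2 at 1265 and 1385 and at 1037 to 2531, a difference of 0.23 (SE 0.25). Both ranges in tumors enclosed the 2 MC38 values of their gene.

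Lower glycolysis and its exits were higher in 4 of 8 genes. Ldha, the lactate dehydrogenase subunit that favors lactate, was at 13631 and 15231 normalized counts in MC38 and at 20321 to 42095 in tumors, higher by 0.82 (SE 0.21, limma adjusted p = 0.00793). Pdk1, a kinase that inhibits pyruvate dehydrogenase, was higher by 0.74 (SE 0.21, limma adjusted p = 0.0174), and Pgam1, a phosphoglycerate mutase, by 0.78 (SE 0.20, limma adjusted p = 0.00853). Gapdh, often taken as a stable reference gene, was at 2508 and 1725 in MC38 and at 1728 to 7087 in tumors, higher by 0.93 (SE 0.30, limma adjusted p = 0.0298). Its lowest tumor lay at the lower MC38 library. Eno1, the general enolase, was at 373 and 271 in MC38 and at 218 to 870 in tumors and did not pass (0.67, SE 0.38), although without wild-type day 46 replicate 1 it did (0.83, limma adjusted p = 0.0128). Pkm, the pyruvate kinase of tumors and muscle, was at 17826 and 20834 in MC38 and at 10698 to 24551 in tumors, and the ranges overlapped throughout. Eno2, the neuronal enolase, was listed at 0 in both MC38 libraries and reached 10.7 in 1 tumor, wild-type day 46 replicate 2, with 11 tumors at or below 4.26.

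Among the carriers, the lactate exporter Slc16a3 was higher and the glucose carriers were not. Slc16a3 was at 1615 and 1767 in MC38 and at 2659 to 5326 in tumors, a difference of 1.20 (SE 0.24, limma adjusted p = 0.00125). Slc2a1, the gene of GLUT1, was at 1674 and 1809 in MC38 and at 1574 to 3768 in tumors. Tumors spread to both sides of the MC38 level, and the difference of 0.45 (SE 0.28) had a limma adjusted p of 0.27. Slc2a3, the gene of GLUT3, stayed between 42.8 and 136 in tumors around its 53 and 87 in MC38.

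The count of members called rested on both MC38 libraries, although no called member changed sign in any alternative tried. With MC38 replicate 1 left out, 18 members were called, and Gpi1, Aldoa, Gapdh, Pgam1, Ldha, Pdk1, Ndrg1, Vegfa and Kdm3a no longer passed, with limma adjusted p from 0.0691 to 0.323. With MC38 replicate 2 left out, 18 were called as well, and Aldoa, Tpi1, Gapdh, Ldha, Pdk1, Egln1, Ndrg1, Vegfa and Kdm3a no longer passed, with adjusted p from 0.0581 to 0.376. Car9, Ankrd37, Aldoc, Bnip3, Adm and Egln3 were among the 16 members called in every alternative. Rescaling all libraries to the same upper quartile moved the median of all genes from 0.07 to -0.07 and gave 22 members higher and 0 lower, where the calls over all genes went from 2671 higher and 1294 lower to 2324 and 2296.

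**Figure D3:**
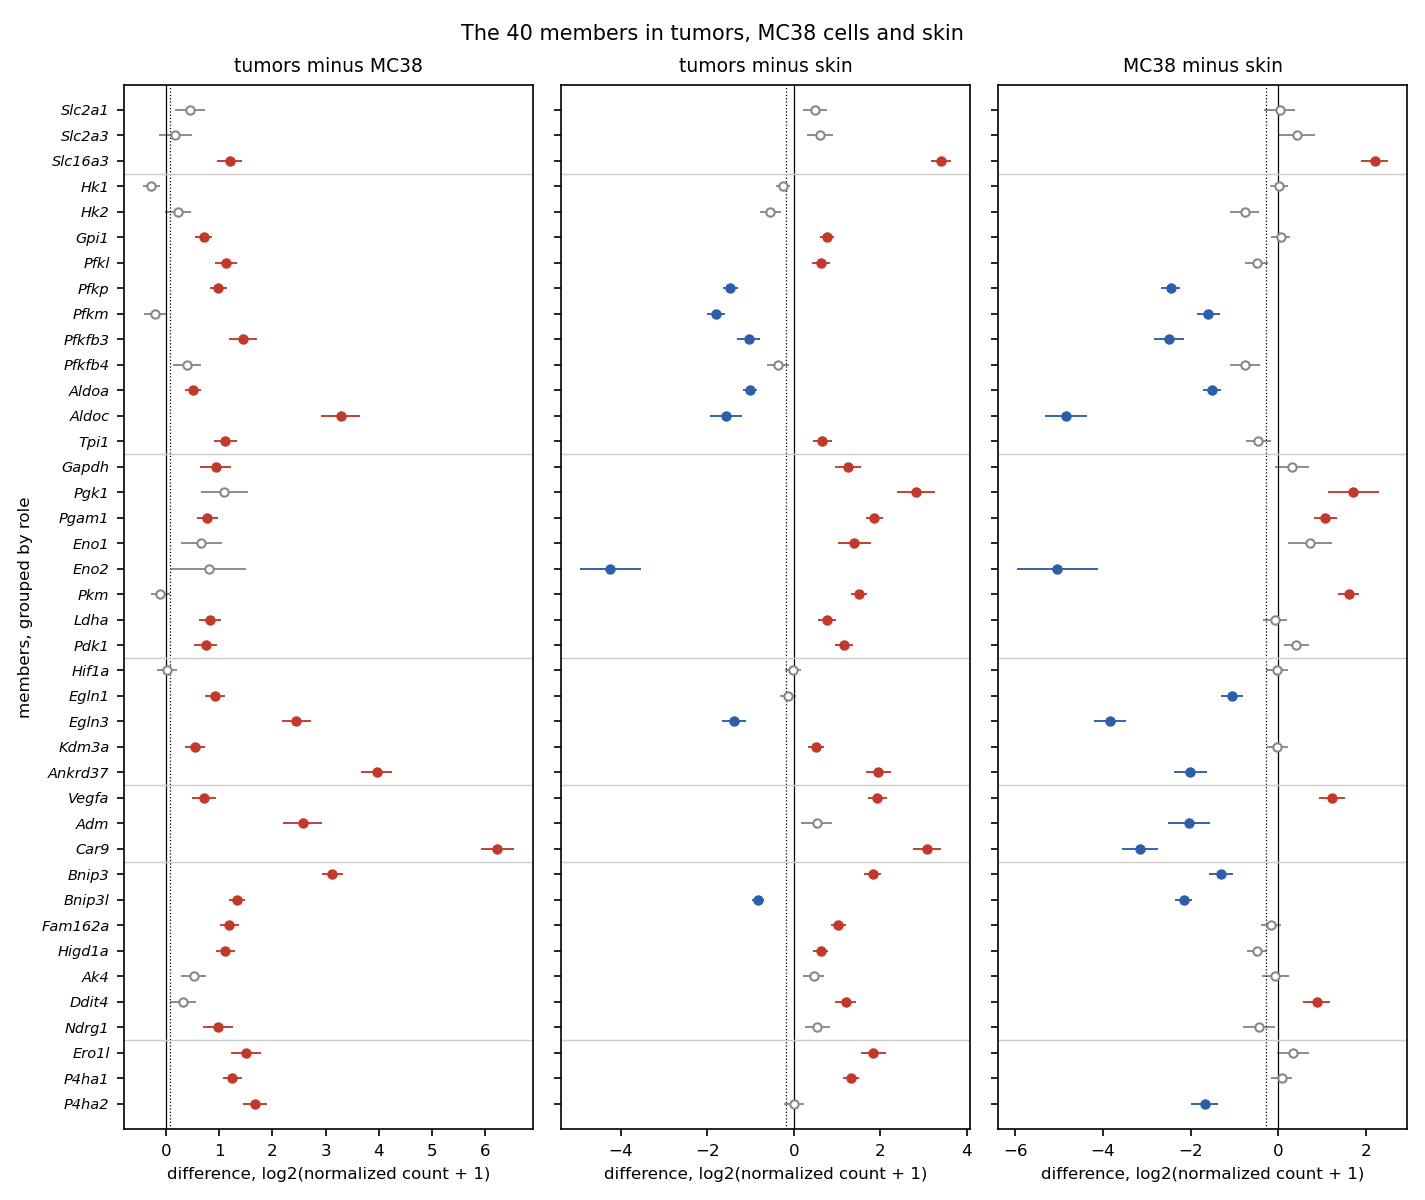
Difference in log2(normalized count + 1) with its SE for each of the 40 members, grouped by role, for tumors minus MC38, tumors minus skin and MC38 minus skin. Filled red points were higher and filled blue points lower (limma adjusted p under 0.05), open points were not called, and the dotted line is the median of all genes tested. All filled points are red in the first panel, which holds 27, and both colors stand in the other panels. Eno2 entered the fit through its level in skin.

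The genes of the same pathways outside the set, from lists chosen with earlier results of these data known, did not all follow. Of 28 other genes known to be induced by low oxygen, 16 were higher and 3 lower in tumors than in MC38 (limma adjusted p under 0.05), with a median of 0.76. Lox, which crosslinks collagen, was at 6.05 normalized counts on average in MC38 and 329 in tumors, and Plod2, which hydroxylates collagen lysines, at 627 and 2531. Bhlhe40, a transcriptional repressor of the clock, was at 156 and 737. The 3 that were lower were Gbe1, a glycogen branching enzyme, Stc2, a stanniocalcin, and Tfrc, the transferrin receptor. Of 15 other glycolysis genes in the fit, Ldhb was higher and Tigar lower. Hk3 entered the fit through its level in tumors and Hkdc1 through its level in MC38, so both are given as values with no test. Hk3, a hexokinase of myeloid cells, was listed at 0 in MC38 and averaged 83.9 in tumors. Hkdc1 averaged 29.0 in MC38 and 3.53 in tumors. Pgf, counted among the 16 above, also entered through tumors. Of 9 other oxygen sensing genes tested, Epas1 and Vhl were higher and Siah2 and Hif1an lower. Epas1 encodes HIF2A, a subunit that endothelial cells express, and was listed at 0 in MC38, at 46 to 272 in tumors and at 1842 and 1159 in skin.

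Skin gave a different order, as tumors lay above it for lower glycolysis and below it for part of upper glycolysis. Against skin, 21 members were higher in tumors and 8 lower (limma adjusted p under 0.05), where 25.2% of genes tested were higher and 36.6% lower. The median was 0.62 over the members and -0.18 over all genes. In 17 members every tumor lay above both skin libraries and in 7 below both, against 20% and 32.3% of all genes. The 7 include Eno2, which entered the fit through its level in skin. The same 12 tumors entered both this comparison and the one with MC38. Skin held far more keratinocytes and muscle, with summed keratinocyte markers of 300986 and 301928 normalized counts against 238 to 1813 in tumors, and skeletal muscle markers of 106318 to 154124 against 43 to 9264. Their part in the differences from skin was not tested, and skin also differed from the tumors in sex and in its lack of MC38 cells.

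Lower glycolysis was higher than in skin in 7 of 8 genes. Pkm was at 6749 and 5895 in skin and at 10698 to 24551 in tumors, higher by 1.51 (SE 0.19, limma adjusted p = 3.51e-06). Pgam1 was at 106 and 81.6 in skin and at 225 to 533 in tumors, higher by 1.86 (SE 0.20, limma adjusted p = 7.59e-07). These genes did not overlap between skin and tumors, and neither did Gapdh, Eno1, Ldha, Pdk1 or Pgk1. The exception was Eno2, which was at 46.9 and 21.7 in skin and at 10.7 or below in every tumor. Eno2 passed the filter on low values through skin alone, so its difference from skin is given as these values with no test, and without it 7 members were lower in tumors than in skin and 13 lower in MC38 than in skin. Among the members higher than in skin, Slc16a3 had the largest difference, with 252 and 529 in skin, 2659 to 5326 in tumors and a difference of 3.41 (SE 0.24, limma adjusted p = 5.92e-09). Car9 was at 65.6 and 35.7 in skin and higher in tumors by 3.08 (SE 0.32, limma adjusted p = 5.3e-07), and Vegfa was at 291 and 544 and higher by 1.93 (SE 0.22, limma adjusted p = 1.81e-06).

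Upper glycolysis was split, with 3 genes higher than in skin and 5 lower. Gpi1, Pfkl and Tpi1 were higher, by 0.77 (SE 0.16), 0.64 (SE 0.20) and 0.66 (SE 0.22). Pfkp, Pfkm, Pfkfb3, Aldoa and Aldoc were lower. Aldoa, the muscle aldolase, was at 20968 and 17401 in skin and at 6504 to 12371 in tumors, a difference of -1.01 (fold 0.497, SE 0.15, limma adjusted p = 3.42e-05). Pfkm was at 1273 and 1557 in skin against 269 to 551 in tumors, and its fold was 0.287 (limma adjusted p = 1.43e-06). Egln3 and Bnip3l, both higher in tumors than in MC38, were lower than in skin, with folds of 0.384 and 0.565 (limma adjusted p = 0.000401 and 0.000137). For Egln3 the order of the 3 tissues was skin at 2907 and 2620, tumors at 464 to 2161 and MC38 at 159 and 233, with no overlap between neighbours. Adm and Ndrg1 were not called against skin, with differences of 0.53 (SE 0.37) and 0.54 (SE 0.28). Both were called after rescaling, Adm at 1.00 (limma adjusted p = 0.0274) and Ndrg1 at 1.02 (0.00601) with the same upper quartile, and at 0.92 (0.0326) and 0.95 (0.0073) with the same total. Ndrg1 also passed in edgeR (0.76, adjusted p = 0.0441) and without wild-type day 23 replicate 1 (0.63, limma adjusted p = 0.0322).

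MC38 cells in culture were mostly not above skin. Of the 40 members 6 were higher in MC38 and 14 lower (limma adjusted p under 0.05), where 22.2% of genes were higher and 37.9% lower, so the share lower was 14 of 40 beside a background of the same order. The median was -0.30 over the members and -0.28 over all genes. In 10 members both MC38 libraries lay above both skin libraries and in 20, among them Eno2, below, against 32.2% and 48.6% of all genes. Slc16a3 was higher by 2.21 (SE 0.31, limma adjusted p = 1.45e-05), Pkm by 1.61 (SE 0.24, limma adjusted p = 2.94e-05) and Vegfa by 1.23 (SE 0.29, limma adjusted p = 0.00184), along with Pgk1, Pgam1 and Ddit4. All 3 were thus above skin in cells that had no host. Vegfa lost its call without skin replicate 1 (adjusted p = 0.0592), Pgk1 without skin replicate 1 or MC38 replicate 1 (0.188 and 0.123), and Ddit4 without skin replicate 1, MC38 replicate 1 or MC38 replicate 2 (0.177, 0.0903 and 0.0706). Aldoc, Egln3 and Car9 were lower than in skin, at folds of 0.0347, 0.0701 and 0.112 (limma adjusted p = 3.14e-07, 1.93e-07 and 7.85e-06). Eno2, at 0 reads in both MC38 libraries, was at least 12.5-fold lower than in skin, with 3 reads per library taken as the floor. Since it shares its samples with both comparisons above, its values follow in part from theirs.

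Comparisons with skin moved with the scaling. Rescaled to the same upper quartile, the median of all genes went from -0.18 to 0.31 for tumors minus skin and from -0.28 to 0.36 for MC38 minus skin, and the members' counts went to 27 higher and 5 lower and to 16 higher and 12 lower. Eno2, counted as lower in both before, was not tested under that scaling. Over all genes the calls went from 4073 higher and 5913 lower to 6316 and 4094 for tumors, and from 3587 and 6120 to 6008 and 4434 for MC38. Taken relative to the median of all genes, the members' median was 0.80 for tumors minus skin under the deposited scaling and 0.79 under the other, and -0.02 and 0.11 for MC38 minus skin. Relative to that median 29 of 40 members were above it in tumors against skin, and 36 of 40 in tumors against MC38. Without skin replicate 1 the members called against skin numbered 24 for tumors and 16 for MC38. Of those 16, 3 and not 6 were higher in MC38. Without skin replicate 2 the members called numbered 24 and 19. With skin replicate 1 or skin replicate 2 left out, Eno2 fell below the filter on low values. It was then not tested, so its absence from these counts is not a lost call. The calls of Kdm3a, Higd1a and Ldha in tumors against skin were lost without skin replicate 1, with adjusted p of 0.367, 0.146 and 0.0911, and those of Pfkl, Pfkfb3 and Eno1 without skin replicate 2, with 0.303, 0.0968 and 0.0832. Tpi1 was lost without either, at 0.0517 and 0.215. Under the upper quartile scaling Pfkfb3 and Bnip3l were no longer lower than in skin (0.0626 and 0.0514).

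Among tumors, the host made little difference that passed the test. Over both days, 1 of the 39 members tested was higher in wild-type than in RAG1-/- tumors and 0 were lower (limma adjusted p under 0.05), where 0.570% of the 14746 genes tested were higher and 0.142% lower. Eno2 was too low to be tested here. At an unadjusted limma p under 0.05 there were 11 members higher and 0 lower, where 1682 of the 14746 genes passed in either direction. edgeR called 1 member and DESeq2 3, all higher. The median was 0.20 over the members and 0.01 over all genes, and 30 of 39 members had a positive difference. In 0 members did all 6 tumors of one host lie above or below all 6 of the other, which 0.651% and 0.332% of genes did. Days differed between the hosts, as the wild-type tumors were taken at days 23 and 46 and the others at days 13 and 23, so host and age of the tumor cannot be told apart in this comparison. T cell markers moved with the host, as given above, and summed macrophage markers were at 12297 to 21634 in wild-type tumors and at 9826 to 16461 in RAG1-/- tumors. Their part was not tested.

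The member called was Egln3. It was at 1508, 1521 and 1893 normalized counts in wild-type tumors of day 23 and at 2161, 1628 and 876 at day 46. In RAG1-/- tumors it was at 555, 604 and 464 at day 13 and at 1089, 640 and 1354 at day 23. The hosts overlapped, since 1 wild-type tumor of day 46 lay below 2 RAG1-/- tumors of day 23. The difference was 1.08 (SE 0.21, limma adjusted p = 0.0201). It did not pass without wild-type day 23 replicate 3 (adjusted p = 0.0698), wild-type day 46 replicate 2 (0.0561) or RAG1-/- day 13 replicate 3 (0.0633), nor with the spread taken without a trend (0.146). Car9 and Aldoc came closest among the others, with differences of 0.89 (SE 0.20, limma adjusted p = 0.05001, just above the threshold) and 1.14 (SE 0.27, limma adjusted p = 0.0741).

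At day 23, the day both hosts share, 0 of the 39 members were called in limma, where 0.231% of genes were higher and 0.0475% lower and 3 members and 1646 of the 14746 genes had an unadjusted p under 0.05. edgeR called 0 members and DESeq2 1, Ddit4. Aldoc, Ddit4, Egln3 and Pfkfb3 lay above all 3 RAG1-/- tumors in all 3 wild-type tumors, where 8.50% of genes did so, and Gapdh lay below, where 7.62% did. Ddit4 was at 2204, 2824 and 2822 in wild-type and at 1834, 1145 and 1190 in RAG1-/- tumors, a difference of 0.94 (SE 0.26, limma adjusted p = 0.158). Gapdh was at 2470, 5838 and 2347 in wild-type and at 6465, 6428 and 7087 in RAG1-/- tumors. Wild-type replicate 2 thus stood near the RAG1-/- tumors and the other replicates did not, and without wild-type day 23 replicate 2 the difference of -1.04 (SE 0.32, limma adjusted p = 0.208) became -1.47 and passed, with an adjusted p of 0.0434.

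Differences with time were mostly positive in RAG1-/- and mostly negative in wild-type tumors, without any call in limma. From day 13 to day 23 in RAG1-/- mice 34 of 39 members had a positive difference, with a median of 0.39 against -0.01 over all genes. From day 23 to day 46 in wild-type mice 28 of 39 had a negative one, with a median of -0.20 against 0.00. Called members and called genes numbered 0 in both comparisons (0.00% of genes), with 1722 and 1261 of 14746 genes at an unadjusted p under 0.05, among them 12 members, all higher, in RAG1-/- and 8, all lower, in wild-type tumors. edgeR called 0 members in both, and DESeq2 called Gapdh and Car9 in RAG1-/- and Fam162a and P4ha1 in wild-type tumors. For 12 members every RAG1-/- tumor of day 23 lay above every one of day 13, where 9.48% of genes did so, and for 0 members below, where 9.92% did. For 6 members (Bnip3l, Car9, Ddit4, Fam162a, P4ha1 and Pgam1) every wild-type tumor of day 46 lay below every one of day 23, where 5.44% of genes did so, and for 1, Slc2a3, above, where 7.02% did. Summed markers of cell types also moved between days without overlap. In wild-type tumors, endothelial markers were at 477 to 564 normalized counts at day 23 and at 713 to 1300 at day 46. Keratinocyte markers were at 386 to 1813 and at 238 to 362. Colon epithelial markers, listed for the MC38 line itself, were at 9.51 to 25.6 and at 26.4 to 59.1. Only 1 of these 7 genes reached the filter on low values, and Cdx2 and Cldn7 were at 0 in both groups. In RAG1-/- tumors, skeletal muscle markers were at 375 to 9264 at day 13 and at 51.1 to 81.2 at day 23. Red cell markers were at 1582 to 1915 and at 4049 to 9603. Summed neutrophil markers were at 405 to 561 and at 898 to 1820. Of the 6 neutrophil genes, however, 5 had a negative difference and 1 a positive one, with a median of -0.26. The part of these cells in the differences was not tested.

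Car9 carried the largest of these differences. It was at 154, 203 and 136 normalized counts in RAG1-/- tumors of day 13 and at 716, 338 and 785 at day 23. In wild-type tumors it was at 864, 696 and 580 at day 23 and at 518, 388 and 478 at day 46. The day 13 tumors were thus the lowest of all 12, and the other 3 groups ran from 338 to 864. The difference between days was 1.82 in RAG1-/- tumors (SE 0.28, limma adjusted p = 0.118) and -0.62 in wild-type tumors (SE 0.28, limma adjusted p = 0.565). Without RAG1-/- day 13 replicate 2 or without RAG1-/- day 23 replicate 2, Car9 was called in RAG1-/- tumors in limma, with differences of 1.98 and 2.20 (adjusted p = 0.0176 and 0.00194). Gapdh was at 1728, 2771 and 2926 at day 13 and at 6465, 6428 and 7087 at day 23 in RAG1-/- tumors, a difference of 1.46 (SE 0.32, limma adjusted p = 0.167), and these groups did not overlap. The change with time in wild-type minus that in RAG1-/- tumors was negative in 34 of 39 members, with a median of -0.58 against 0.02 over all genes, and 0 members and 0 genes were called in limma (0.00%), with 1279 genes at an unadjusted p under 0.05. edgeR called 0 members and DESeq2 called 3, Car9, Fam162a and P4ha1. For Car9 this difference of changes was -2.44 (SE 0.39, limma adjusted p = 0.148), and for P4ha1, whose RAG1-/- tumors went from 2170, 1739 and 1675 to 2844, 2304 and 2777 and whose wild-type tumors went from 2786, 2971 and 4086 to 2308, 1922 and 1485, it was -1.29 (SE 0.27, limma adjusted p = 0.262).

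**Figure D4:**
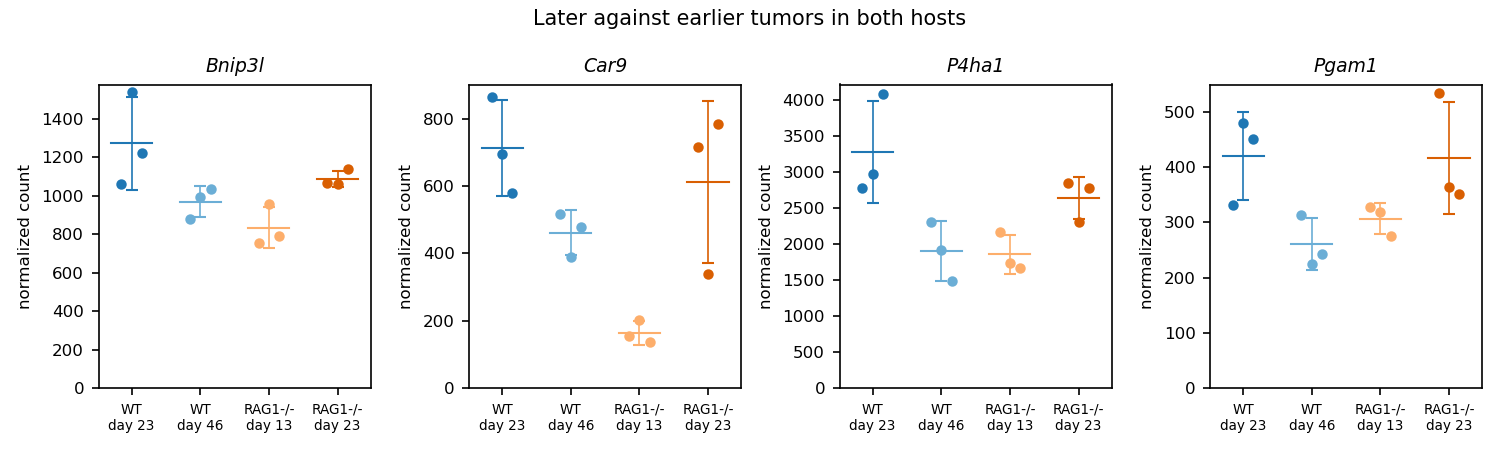
Normalized count in each of the 12 tumors (points), with the group mean (wide line) and SD (bars, n = 3), for the 4 members in which every later tumor was lower in wild-type mice and higher in RAG1-/- mice. The RAG1-/- tumors of day 13 are lowest for Car9, at 136 to 203. How many of all genes share the pattern of these 4 members was not counted.

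Taken by group means, RAG1-/- day 13 was the lowest tumor group for 28 of the 40 members, and wild-type day 23 was the highest for 20. Single libraries were also the highest or lowest of their group for many members. Wild-type day 23 replicate 1 was the lowest of its group for 29 of 39 members, RAG1-/- day 13 replicate 2 the highest for 26 of 40, and RAG1-/- day 23 replicate 2, the library with the fewest reads, the lowest for 26 of 40. The same counts of groups and libraries were not made over all genes, so they are not read as particular to the members.

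Near-identical gene copies limit the values of 4 members. Only the primary alignment of a read that fits several places was kept by the authors, so reads can fall on a copy. Of the 40 members 12 had in the table an annotated copy with at least 95% identity over at least 200 bases, and in tumors the copies of 4 took over 10% of the summed counts. Pgk1, the kinase that makes the first ATP of glycolysis, was at 77.9 and 48.9 normalized counts in MC38 and at 60.6 to 287 in tumors, but its copy Pgk1-rs7 averaged 2038 in tumors, and 93.3% of the sum lay on copies. Pgk1 itself is therefore uncertain. With copies added, a processing chosen after seeing the data, its difference from MC38 went from 1.10 (limma adjusted p = 0.083) to 0.42 (0.105), and from skin from 2.81 to 1.74. Pgk1 alone was called against MC38 without wild-type day 23 replicate 1 (1.20, limma adjusted p = 0.0472), without wild-type day 46 replicate 1 (1.22, 0.0281), in a fit of only the groups compared (0.048) and in DESeq2 (0.0341). For Higd1a 23.5% of the sum lay on Gm9790, for Gapdh 18.2% on 87 copies, and for Eno1 14.4%, mostly on Eno1b. Their differences from MC38 and skin kept their side of the threshold when the copies were added. The exons of 16 members also overlap another annotated gene, and the strand setting of the counting is not given in the sources used here, so reads of the overlapping gene cannot be told apart there. The overlap was largest for Ankrd37 and Lrp2bp (22.7% of the exon bases), Higd1a and Gm47112 (22.5%) and Bnip3 and Gm45507 (22.3%).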

How the data were processed

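RNA of tumor pieces, skin and MC38 cells was sequenced by the authors as 3′ QuantSeq libraries. Per the labels and the methods of the study, adapters were cut with Cutadapt, reads under 22 nt were removed with Trimmomatic, reads were aligned to mm10 with STAR and then Bowtie2, ribosomal reads were dropped, primary alignments were counted per gene with HTSeq and counts were divided by DESeq2 size factors. Versions, annotation and strand setting are not given in the sources used here. The deposited values are thus a signal of gene counts divided by size factors (normalized counts), and 100% of the values came out as whole reads to within 0.01 read. Another deposited table of normalized counts, with 6 columns that could not be mapped to single samples, was not used (6 samples of the 22 in the series).

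The test took genes whose average over the fitted libraries reached 5 normalized counts, as log2(normalized count + 1) in limma 3.58.1 and R 4.3.3, with a trend, on group means. Fold changes are on that scale, which understates low genes. Comparisons with MC38 and skin were fitted on all 16 libraries and those among tumors on the 12 tumors, and p-values were adjusted over all genes tested (Benjamini-Hochberg). Alternatives were count tests of the recovered reads (edgeR 4.0.16, DESeq2 1.42.0), other pseudocounts, filters and scalings, a replicate block and leaving out each library. Between tumors and MC38 edgeR called 2419 genes higher and 1386 lower, DESeq2 2850 and 1454, and limma 2671 and 1294. The procedure was tested on simulated data. Members and lists were chosen with earlier results of these data known. Members were named where they passed a test, and those that did not were named after their values were seen. Promoter sequences and transcript starts are RefSeq's, on GRCm38.p6, and gene positions and copies came from GENCODE M21 on GRCm38.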

Additional observations from a re-analysis of the deposited data

Results flagged for a closer look

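In 4 members every later tumor was lower in wild-type mice and every later tumor was higher in RAG1-/- mice. Alone, the first held for 5.44% of the genes tested and the second for 9.48%. How many genes met both was not counted. The difference of these changes, wild-type minus RAG1-/-, was -2.44 on the log2 scale for Car9 (limma adjusted p = 0.148), -1.29 for P4ha1 (0.262), -1.10 for Pgam1 (0.395) and -0.77 for Bnip3l (0.40), so none passed after adjustment over 14746 genes. Without RAG1-/- day 13 replicate 2 or RAG1-/- day 23 replicate 2 Car9 passed in limma, and DESeq2 called Car9 and P4ha1. The days compared differed between the hosts, 13 and 23 in RAG1-/- mice and 23 and 46 in wild-type mice, so host and interval cannot be told apart.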

How the results depend on the processing

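Over 113 member differences described here, 2580 values were computed under alternatives, of which 2490 kept their direction and side of the threshold, 59 lost the call, 31 gained one and 0 changed sign. Of the 77 called, 53 held in every alternative in which they were tested. Both counts include Eno2 in its comparisons with skin, which not every alternative tested. By direction, the upper quartile scaling moved the members higher in MC38 than in skin from 6 to 16 and those lower in tumors than in skin from 8 to 5. The 8 include Eno2, which was not tested under that scaling. Total counts of called members moved by over 1.5 times in comparisons among tumors. Between the hosts over both days, 2 members (Egln3 and Car9) were called with a pseudocount of 5 and with copies added, 0 without the trend and 3 in DESeq2. DESeq2 called 1 member at day 23, 2 between wild-type days, 2 between RAG1-/- days and 3 for the difference of changes, and the cause was not tested. Over all genes DESeq2 called 194 higher and 89 lower between hosts over both days and limma 84 and 21. At day 23 DESeq2 called 158 and 81, edgeR 17 and 5, and limma 34 and 7. Between wild-type days DESeq2 called 25 and 16, between RAG1-/- days 90 and 116, and for the difference of changes 36 and 22, where limma and edgeR called 0.

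Leaving out 1 library at a time gave 18 to 29 members for tumors against MC38, 24 to 32 for tumors against skin, 16 to 19 for MC38 against skin, 0 to 3 between hosts over both days, 0 to 1 at day 23, 0 between wild-type days, 0 to 1 between RAG1-/- days and 0 to 1 for the difference of changes. Replicate numbers showed no clear pairing of the tumors. The deviations of 18 same-numbered pairs correlated from -0.236 to 0.246, and 4 were over 0.1. Pairs with other numbers correlated from -0.213 to 0.201. With 3 libraries in each tumor group, these correlations cannot exclude a weak pairing. With the replicate number as a block, 25 members were called against MC38 (Aldoa 0.0577 and Kdm3a 0.0576 no longer passed) and 29 for tumors against skin, 20 for MC38 against skin, 1 between hosts, and 0 in the other 4 comparisons. MC38 and skin had 2 libraries each, and with 3 reads worth up to 6.38 normalized counts the low levels of Car9, Aldoc, Adm and Eno2 in MC38 are the least precise.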
